A study of Arabidopsis thaliana with 6 samples.

Results

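Organ boundary genes are the genes that keep growth low in the narrow strips of tissue between a meristem and the organs it forms, and between neighbouring organs. The 10 examined here were PTL (AT5G03680), BOP1 (AT3G57130), BOP2 (AT2G41370), CUC1 (AT3G15170), CUC2 (AT5G53950), CUC3 (AT1G76420), LOB (AT5G63090), JLO (AT4G00220), LAS (AT1G55580) and LOF1 (AT1G26780). They were named by hand from knowledge of the pathway, with earlier results of these data known. They are among 27444 nuclear protein-coding genes of Arabidopsis thaliana. A JAG peak was assigned to a gene if its summit, the position of its maximum, lay in the gene or within 3000 bp of it. By that rule 12 of 6890 peaks fell to these genes, 3 in the list of replicate 1, 4 in that of replicate 2 and 5 in that of replicate 3. Of the names, 9 were the symbols of the RefSeq gene list, and LOF1 was given there as a synonym of MYB117.

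JAGGED (JAG) is a C2H2 zinc finger protein that promotes growth of lateral organs such as sepals and petals, and the series sought its direct targets in floral buds by chromatin immunoprecipitation with sequencing. The 3 JAG-GFP samples came from the jag-2 mutant carrying JAG:JAG-GFP, a fusion of JAG to green fluorescent protein expressed from the gene's own promoter. The 3 wild-type samples came from L-er plants, which lack the tag. All 6 were inflorescence tips with unopened buds only, so every sample mixed cells that express JAG with cells that do not. Genotype therefore differed between the groups in both the jag-2 allele and the transgene. The processed data were 3 lists of 2620, 2143 and 2127 peaks, 1 per replicate number, each peak with a score that is the authors' own. Scores began at 1.86, 1.89 and 1.87. Places without a listed peak have no value, and read depth was not analysed here. The list of replicate 3 stops on chromosome 1 at position 23827070. CUC3 lies past it and could be examined in 2 lists, and the other 9 genes in 3.

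The proteins act in connected ways. CUC1, CUC2 and CUC3 are NAC transcription factors that set up boundaries and allow meristems to form there, and the microRNA miR164 restricts CUC1 and CUC2. BOP1 and BOP2 are closely related co-activators that work with DNA-binding partners such as TGA factors to restrict growth at the base of organs. PTL is a trihelix factor that restrains growth between sepals. LOB and JLO are members of the LBD family, LAS is a GRAS protein needed for axillary shoots, and LOF1 is a MYB factor that separates organs from the stem.

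Recurrent JAG peaks lay at 3 of the 10 genes, PTL, BOP1 and BOP2, each of which had a peak in every list. CUC1 had a peak in the list of replicate 3 alone. CUC2, CUC3, LOB, JLO, LAS and LOF1 had no peak within 3000 bp in any list that covers them. By list, 3 of 10 genes had a peak in replicate 1, against 17.4% of all protein-coding genes. In replicate 2 the count was 3 of 10, against 14.1%, and in replicate 3 it was 4 of 9, against 14.6%. A peak in every covering list was found for 3 of 10 genes, against 7.08% of all genes, and a peak in at least 1 list for 4 of 10, against 26.0%. The genes were chosen with earlier results of these data known, so the difference from all genes describes the list and was not tested.

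The strongest of these sites belonged to BOP1. Its region (TAIR10, chromosome 3, 21144255 to 21145426) scored 4.16 in replicate 1, 4.10 in replicate 2 and 5.45 in replicate 3. All 3 peaks stood near the top of their lists, at rank 18 of 2620, 29 of 2143 and 15 of 2127. The mean score was 4.57 ± 0.76 (SD, n = 3 lists), which placed it 18th by mean score among the 869 regions with a peak in all 3 lists. The summits fell at 21144839, 21144818 and 21144850, within 32 bp of each other. Over all 869 regions the median spread of summits was 118 bp, and 13.5% of them had a narrower spread than BOP1.

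The BOP1 site lay in the space between genes, on the side of lower coordinates. Its summits were 2719, 2740 and 2708 bp from the gene in replicates 1, 2 and 3, just inside the limit of 3000 bp. BOP1 was nevertheless the nearest protein-coding gene in every list, because the next, AT3G57120, was 4172, 4151 and 4183 bp away. The stretch free of protein-coding genes on that side measured 6890 bp, and on the other side 3 bp separated BOP1 from SDP1-LIKE. Of the 869 regions, 87 (10.0%) had their nearest protein-coding gene 2000 bp or more away, and 3 of those 87 had a higher mean score than the BOP1 region. The closest summit beyond the limit at any of the 10 genes was a weak peak of replicate 3 on the other side of BOP1, 3750 bp away and inside NAP57, with a score of 1.89.

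PTL had 2 separate sites. The outer site (chromosome 5, 961786 to 962535) scored 2.33, 3.15 and 3.82 in replicates 1, 2 and 3. The ranks were 505 of 2620, 101 of 2143 and 73 of 2127, or percentile 80.4, 95.3 and 96.6, so the site stood high in every list and higher in replicates 2 and 3. The mean score was 3.10 ± 0.75 (SD, n = 3 lists), 109th of the 869 recurrent regions. The summits, at 962178, 962067 and 962157, spread over 111 bp.

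The outer PTL site sat almost midway in the 2099 bp between PTL and FBA4 (AT5G03690), a gene for fructose-bisphosphate aldolase. Distances to PTL were 1131, 1020 and 1110 bp, and those to FBA4 were 969, 1080 and 990 bp. FBA4 was thus the nearer gene in replicates 1 and 3, and PTL in replicate 2. The distances to the 2 genes differed by 162, 60 and 120 bp in replicates 1, 2 and 3, less than the mean fragment length of about 500 bp given in the labels. The lists do not assign the site to either gene.

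The other PTL site lay at the opposite edge of the gene (956974 to 958053), with summits 15 bp from it in replicate 2 and 29 bp in replicate 3. It scored 1.98 and 2.40 there, at percentile 33.8 and 71.6 of the list, and replicate 1 listed no peak at that place. No other protein-coding gene lay within 5000 bp of these summits, the next being FBA4 at 5551 and 5565 bp. The stretch free of protein-coding genes on that side of PTL was 7371 bp long and held no further peak in any list.

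BOP2 had the weakest of the 3 recurrent sites. Its region (chromosome 2, 17242471 to 17243126) scored 2.04, 2.31 and 3.15 in replicates 1, 2 and 3, at percentile 49.7, 72.6 and 91.3 of the lists. The score in replicate 1 equalled the median of that list, 2.04, whereas in replicate 3 the peak ranked 180 of 2127. The mean was 2.50 ± 0.58 (SD, n = 3 lists), 341st of the 869 recurrent regions. Despite the modest scores the position was steady: the summits at 17242863, 17242870 and 17242894 spread over 31 bp. The peaks were short, with a mean width of 562.7 bp against a median of 1242 bp over the 869 regions. Of those regions, 5.41% had narrower peaks. A summit lies inside its peak, so short peaks that overlap limit how far their summits can spread.

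The BOP2 site was, like that of BOP1, distant from the gene, at 2254, 2261 and 2285 bp in replicates 1, 2 and 3. It lay on the side of higher coordinates, in a stretch of 11209 bp free of protein-coding genes. BOP2 was the nearest protein-coding gene in every list, and the next, AT2G41375, is annotated within the span of BOP2. A gene for a long non-coding RNA, AT2G09255, lay inside that stretch and slightly nearer than BOP2 to the summit in every list, at 2247, 2240 and 2216 bp. The gene table gives no strand, so whether the BOP1 and BOP2 sites are upstream or downstream was not analysed here.

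The order BOP1, PTL, BOP2 by score held in each list. BOP1 exceeded the outer PTL site by 1.83, 0.95 and 1.63 in replicates 1, 2 and 3, and the ranges of their 3 scores did not overlap. PTL exceeded BOP2 by 0.29, 0.84 and 0.67, a mean difference of 0.60 ± 0.28 (SD, n = 3 lists) with the same sign in every list. The ranges of their scores over the lists overlapped, at 2.33 to 3.82 for PTL and 2.04 to 3.15 for BOP2. With 3 lists an exact two-sided permutation test of 3 scores against 3, which ignores the pairing by list, cannot give a p below 0.1. An exact test paired by list has a higher limit still, and no test was run. Whether the score has the same scale in the 3 lists is not stated, and the order within a list does not depend on it.

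**Figure D1:**
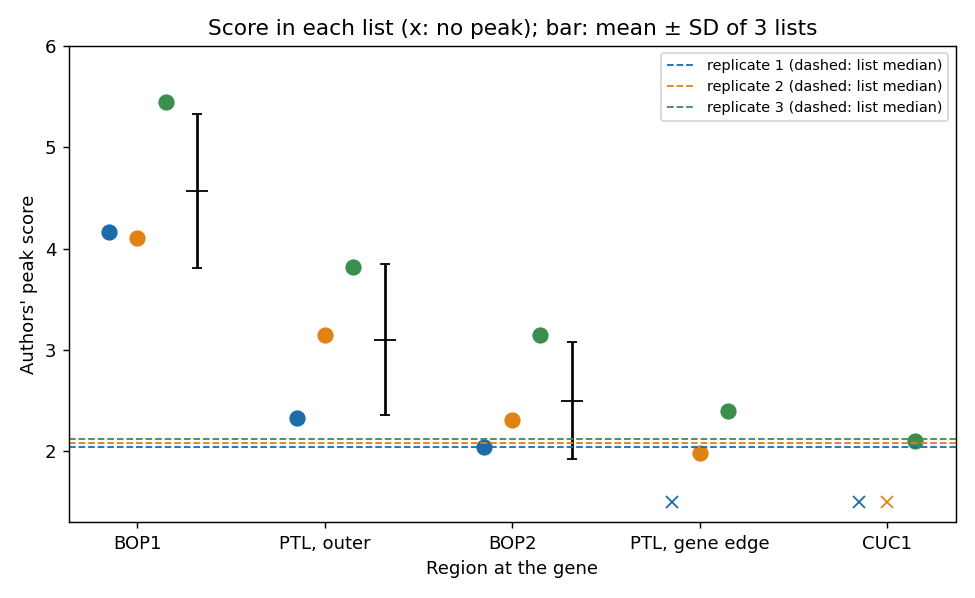
Authors' score (vertical axis) of each region at PTL, BOP1, BOP2 and CUC1 in the lists of replicates 1, 2 and 3 (points; a cross marks no listed peak), with the median of each whole list (dashed). Bars give mean ± SD over 3 lists; BOP1 stands highest at 4.57 ± 0.76, and the point of replicate 3 is the highest at all 3 recurrent sites.

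All 3 recurrent sites scored highest in replicate 3. The ratio of the score in replicate 3 to that in replicate 1 was 1.31 at BOP1, 1.64 at PTL and 1.54 at BOP2, against a median of 1.10 over the 869 regions. At PTL 98.7% of the recurrent regions had a lower ratio, at BOP2 95.9% and at BOP1 84.1%. Between replicates 2 and 1 the ratio was 1.35 at PTL and 1.13 at BOP2, against a median of 1.02, but 0.986 at BOP1. The lists thus differed in how strongly they scored PTL and BOP2 relative to the other shared regions. The labels do not say whether replicates came from separate sets of plants, and the source of this difference was not tested.

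Of the CUC genes, CUC1 had the only peak within 3000 bp. It was listed in replicate 3 (chromosome 3, 5108279 to 5109791) with a score of 2.10, at percentile 47.2, and its summit at 5109325 was 457 bp from the gene. CUC1 was the nearest gene, followed by AT3G15160 at 816 bp and AT3G15180 at 2548 bp. In replicates 1 and 2 the nearest summits to CUC1 were 8831 and 8893 bp away. For CUC2 the nearest summit lay 28242 bp away in both replicates 1 and 2, and 75854 bp away in replicate 3. For CUC3 it lay 59050 bp away in replicate 1 and 53646 bp in replicate 2. CUC2 and CUC3 thus lay farther from JAG peaks than the middle protein-coding gene in every list that covers them, the medians over all genes being 15194.5, 19096.5 and 17926.5 bp in replicates 1, 2 and 3.

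The LBD genes LOB and JLO had no peak either. The nearest summits to LOB were 11844, 17300 and 17224 bp away in replicates 1, 2 and 3, close to the medians of all genes. JLO differed between lists, with a summit 4729 bp away in replicate 1 but 36169 and 56487 bp away in replicates 2 and 3. That peak of replicate 1, with a score of 1.93, had LBD31 as its nearest gene at 292 bp and was the nearest peak outside the limit for any member without a listed one.

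LAS and LOF1, which act in axils and in the separation of organs, completed the set without peaks. For LAS the nearest summits were 47079, 18027 and 38049 bp away in replicates 1, 2 and 3. For LOF1 they were 30928, 7105 and 7082 bp away. The summits near LOF1 in replicates 2 and 3 belonged to overlapping peaks with scores of 2.18 and 2.15, whose nearest gene was AT1G26773 at 557 and 534 bp. All lists therefore placed LAS outside the reach of a peak, while LOF1 shared its broader neighbourhood with a site seen in 2 lists.

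**Figure D2:**
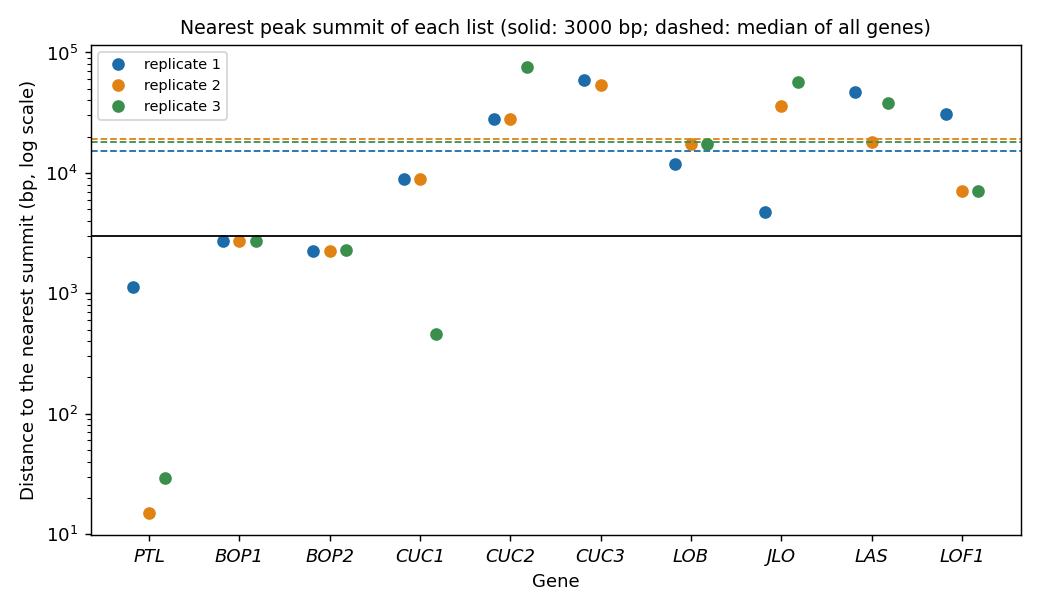
Distance from each of the 10 genes to the nearest summit in the lists of replicates 1, 2 and 3 (points; log axis, bp), with the limit of 3000 bp (solid line) and the median over all protein-coding genes in each list (dashed). BOP1 and BOP2 sit just under the limit in all 3 lists, whereas CUC2 and CUC3 lie above the medians.

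The share of genes with recurrent peaks depended on how far from the gene a summit could lie. Within 1000 bp no boundary gene had a peak in every covering list, against 3.44% of all protein-coding genes. Within 2000 bp PTL did, 1 of 10, against 5.24%. Within 3000 bp the count reached 3, and it stayed at 3 within 5000 bp, where the share of all genes had risen to 11.0%. The recurrent sites of PTL, BOP1 and BOP2 therefore all lay between 1020 and 2740 bp from the gene.

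**Figure D3:**
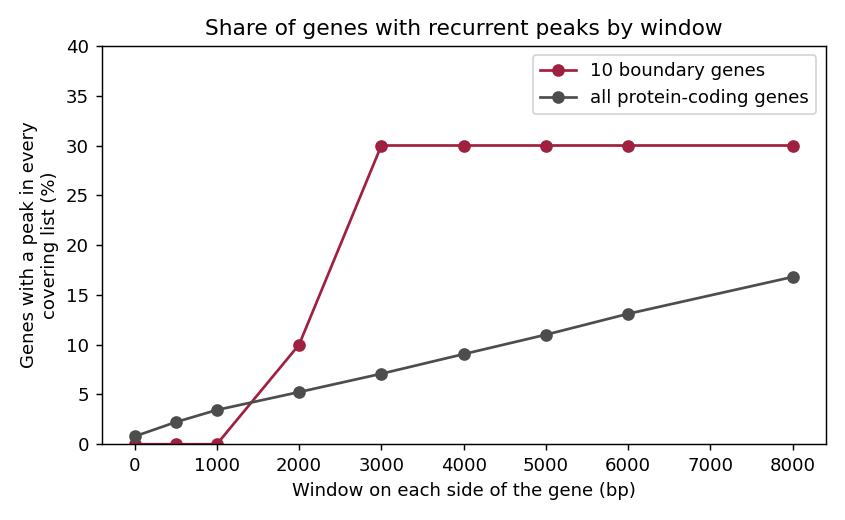
Share of genes (%) with a peak in every covering list against the window allowed on each side of the gene (bp), for the 10 boundary genes (red) and for all protein-coding genes (grey). The red line is at 0 up to 1000 bp and at 30% from 3000 bp on, while the grey line climbs steadily.

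The boundary genes stood in sparse surroundings, which the choice of members did not use. The length free of protein-coding genes on both sides together had a median of 6967.5 bp over the 10 genes, against 1857 bp over all protein-coding genes. The 2 values treat overlapping genes differently. For members an overlapping gene was passed over, whereas over all genes it counted as 0 bp on its side. Among the members only BOP2 has such a gene. It was 9470 bp for PTL, 6893 bp for BOP1 and 12550 bp for BOP2, and 1536 bp for CUC1. The 6 genes without a peak had a median of 6948.5 bp. Among all protein-coding genes with 6000 bp or more of such length, 8.61% had a peak in every covering list. The share was 10.1% for genes with at least 2000 but under 6000 bp and 4.74% for those with under 2000 bp. By that share both longer classes stood above the shortest, and the middle class was highest. For a peak in at least 1 list the shares were 24.2% in the longest class, 29.6% in the middle and 24.3% in the shortest. By that measure the longest class did not exceed the shortest. The part of this gene-free length in the counts above was not tested.

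Other genes of boundaries and axils were examined in a list of 24, named by hand with earlier results of these data known. A peak in every covering list was found for 5 of 24, against 7.08% of all protein-coding genes, and a peak in at least 1 list for 10 of 24, against 26.0%. The list includes 3 microRNA genes, and of its 21 protein-coding genes 4 had a peak in every covering list and 9 in at least 1. The 5 were LSH3, HAN, ATH1, BAS1 and MIR164B, and at LSH3 no single region held all lists. LOF2, PAN, KNAT6, DPA4 and AT3G11580 had a peak in some covering lists. The other 14 had none, among them the microRNA genes MIR164A and MIR164C, the zinc finger genes RBE and SUP, and the MYB genes RAX1, RAX2 and RAX3.

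BAS1 encodes an enzyme that inactivates brassinosteroid hormones and is known to be activated by LOB. Its region inside the gene (chromosome 2, 11382125 to 11383077) scored 2.31, 2.78 and 2.66 in replicates 1, 2 and 3. The mean of 2.58 ± 0.24 (SD, n = 3 lists) was the highest of the recurrent sites of the 24 genes, below the 3.10 of PTL and close to the 2.50 of BOP2. LOB itself had no summit nearer than 11844 bp in any list.

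ATH1, a homeobox gene of the stem and organ base, had a recurrent site beside it (chromosome 4, 15917771 to 15919406) with scores of 2.27, 1.94 and 2.30. HAN, a GATA factor gene of meristem and boundary, had a recurrent site with a mean score of 2.08 ± 0.20 (SD, n = 3 lists). At HAN the gene AT3G50880 was nearer to the summit in replicates 1 and 3, and HAN in replicate 2. Both sites scored below the median of 2.36 over the 869 recurrent regions.

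MIR164B encodes a precursor of miR164, which restricts CUC1 and CUC2. Its peaks scored 2.04, 2.03 and 1.95 in replicates 1, 2 and 3, and the summits lay 1171, 290 and 99 bp from the gene. In replicate 1 AT5G01750 was nearer to the summit, at 810 bp, and in replicates 2 and 3 MIR164B was. The summits spread over 1422 bp, more than in 94.9% of the recurrent regions, so the peaks overlapped without marking a common position. At LSH3, which encodes an ALOG family protein of organ boundaries, 1 region inside the gene was listed in replicates 2 and 3 with scores of 2.28 and 2.00. Another, near AT2G31150, was listed in replicates 1 and 3 with scores of 2.09 and 1.90.

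Of the partial cases, KNAT6, a KNOX homeobox gene active in boundaries, had the highest score. Its peaks inside the gene scored 2.08 in replicate 2 and 3.30 in replicate 3, and replicate 1 listed none. PAN, a TGA-type partner of BOP proteins, had a peak in replicate 1 with a score of 2.26, for which AT1G68650 was the nearer gene. LOF2, the close relative of LOF1, had a peak in replicate 1 with a score of 1.93, nearer to AT1G69570. The position of PAN and LOF2 on chromosome 1 is not covered by replicate 3.

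**Figure D4:**
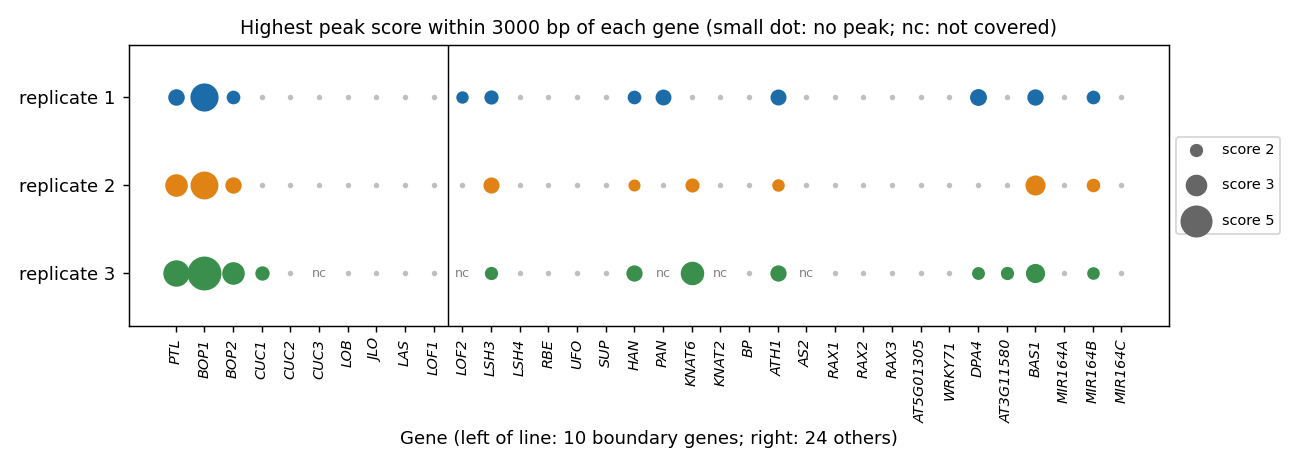
Highest authors' score within 3000 bp of each gene (dot area) in the lists of replicates 1, 2 and 3, for the 10 boundary genes (left of the line) and the 24 other boundary and axil genes. Small grey dots mark genes with no peak and nc a gene the list of replicate 3 does not cover; the largest dots are those of BOP1, up to 5.45.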

How the data were processed

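Per the submitters' processing notes, reads were base-called with CASAVA 1.8 and the genome build was TAIR10. The sources used here do not name the peak caller, its threshold, the scale of the score or the control behind each list. Per the file headers, each deposited peak has a start, end, width, summit and a score by the authors, and depth is unknown. The lists carry replicate numbers that both groups share, and were taken as replicates of JAG-GFP. Gene spans came from the RefSeq table of assembly TAIR10.1. Distances assume that its nuclear coordinates equal those of TAIR10. As a check, the JAG gene lay wholly inside the highest peak of replicates 1 and 2. Replicate 3 and the other genes were not checked in this way. Peaks overlapping by at least 1 bp were merged, leaving out chromosome 1 past position 23827070. Ranks and percentiles are within a list. The functions were tested on simulated data (Python 3.11.15, pandas 2.3.3). Members, gene lists and comparisons were chosen with earlier results of these data known. All 10 members are named. Of the other 24 genes, those with a peak in every covering list are named by rule, and the further ones were chosen after their values were seen. No test was planned. No sequence is shown and the planned search for sequence words was not run, because no genome sequence was used here.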

Additional observations from a re-analysis of the deposited data

How the results depend on the processing

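PTL, BOP1 and BOP2 had a peak of every covering list in 1 merged region and with an overlap of 50% of the shorter peak. They were also the genes counted without replicate 1, 2 or 3 and in at least 2 lists. The same genes were counted with peak intervals in place of summits and with a window of 5000 bp. Apart from the merged region and the overlap, these settings could add genes but not lose those with a summit within 3000 bp in every list. Leaving out CUC3, which had no peak, made no difference to the count of 3, an alternative added after the data were seen. The share of all protein-coding genes was 9.26%, 10.1% and 8.69% without replicates 1, 2 and 3. It was 8.23% with peak intervals and 11.0% at 5000 bp. For the other settings just named no such share was computed. A window of 1000 bp gave 0 of 10, against 3.44% of all genes, and 2 of 10 with a peak in at least 1 list, against 15.9%. The highest-scoring 50% of each list kept PTL and BOP1, 2 of 10 against 3.73%, since the BOP2 score in replicate 1 equals that list's median. Counting a gene only where it is nearest to the summit among protein-coding genes kept BOP1 and BOP2. That setting leaves out AT2G09255, the non-coding RNA gene nearer than BOP2 to the summit in every list. No share of all genes was computed for it. The count of 5 among the 24 other genes became 3 at 1000 bp, against 3.44% of all genes. It was 1 with the highest-scoring 50%, against 3.73%, and 2 with nearest genes only. Without replicates 1, 2 and 3 it was 6, 8 and 5, against 9.26%, 10.1% and 8.69%. The 8 include LOF2 and PAN, which replicate 3 does not cover, so a peak of replicate 1 alone counted them. The shares of all genes without replicate 1 or 2 likewise rest on 1 list at the end of chromosome 1. With 1 replicate left out, mean scores ran from 2.74 to 3.48 for PTL, 4.13 to 4.80 for BOP1 and 2.17 to 2.73 for BOP2. These means cannot move by 1 SD when 1 of 3 values is left out, so a smaller shift shows nothing about stability. The order of the mean scores was unchanged by percentiles or by leaving out a replicate. That follows from the same order in each list and adds no support. No paired analysis was possible because the lists hold 1 score per peak and no separate values for JAG-GFP and wild-type samples.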

Other observations

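Further sites lay in the same stretches free of protein-coding genes beyond the limit of 3000 bp, picked out after their values were seen. Beside BOP1 another region lay 5891 bp from the gene in replicate 1 and 5948 bp in replicate 2, with scores of 2.26 and 2.18 and no peak in replicate 3. AT3G57120 was the nearer gene there, at 1000 and 943 bp. Beyond BOP2, in its stretch of 11209 bp, a recurrent region lay 9669, 9588 and 9679 bp from the gene in replicates 1, 2 and 3. It scored 2.04, 2.43 and 2.10, close to the BOP2 site in replicates 1 and 2 and below its 3.15 in replicate 3. A further region of replicates 1 and 3 lay 8422 and 8457 bp away, with scores of 1.98 and 2.16. These sites of the BOP2 stretch were nearer to the gene at its other end than to BOP2, at 1541, 1622 and 1531 bp for the recurrent one.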
